A study of Mus musculus with 6 samples.

Results

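Expression of the Hox genes of the 4 mouse Hox clusters was examined in E14 embryonic stem cells with and without knockdown of Tdg, which encodes thymine DNA glycosylase. The members are 38 listed Hox genes, taken by name and described by cluster and by paralogue group. This list and those set beside it were chosen with earlier results of these data known. Of the 38 members, 37 had a row of their own on the array, among 19938 named genes in all. The exception, Hoxb8, shares its row with Hoxb7 and is given only as that shared row. RNA was measured on Affymetrix whole-transcript arrays, 3 from control E14 cells and 3 from Tdg knockdown cells. E14 is a mouse embryonic stem cell line, grown here on 0.1% gelatin with 15% serum and the cytokine LIF at 1000 units/ml. Lentiviral vectors were given at a multiplicity of infection of 10, and puromycin at 2 ug/ml followed 48 h later, so each array reports a selected population of infected cells. The labels do not say which vector the control cells received, nor whether the 3 arrays of a group stand for 3 cultures. The p-values therefore rest on a spread between samples that may be partly or wholly technical. In bulk RNA, fewer cells expressing a gene and less RNA per cell cannot be told apart.

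Hox genes encode homeodomain transcription factors that assign position along the head-to-tail axis of the embryo. They lie in 4 clusters, Hoxa, Hoxb, Hoxc and Hoxd, on chromosomes 6, 11, 15 and 2 of GRCm38.p6. Genes with the same number are paralogues, descended from a common ancestor before the clusters were duplicated. Low-numbered genes sit at the 3′ end of their cluster and are switched on first and furthest forward in the embryo, and high-numbered genes follow later and further back. In undifferentiated embryonic stem cells most Hox promoters are CpG-rich, carry Polycomb marks and are held close to silent, and retinoic acid turns on the 3′ genes first. TDG excises oxidised forms of methylated cytosine, and CpG sites are where that cytosine lies.

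The upstream sequences of 3 members are shown because these were the members whose signal lay higher in all knockdown arrays than in all control arrays. Each run holds the 250 bases before the RefSeq start, 5′ to 3′ on the plus strand of GRCm38.p6, with every CG dinucleotide in capitals. The windows are chr11:96365508-96365757 for Hoxb1, chr2:74762730-74762979 for Hoxd1 and chr2:74667975-74668224 for Hoxd13.
Hoxb1: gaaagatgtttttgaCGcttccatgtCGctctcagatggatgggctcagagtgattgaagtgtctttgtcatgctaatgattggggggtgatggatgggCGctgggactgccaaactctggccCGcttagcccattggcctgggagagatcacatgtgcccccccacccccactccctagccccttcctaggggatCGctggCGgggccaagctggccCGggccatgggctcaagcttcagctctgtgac
Hoxd1: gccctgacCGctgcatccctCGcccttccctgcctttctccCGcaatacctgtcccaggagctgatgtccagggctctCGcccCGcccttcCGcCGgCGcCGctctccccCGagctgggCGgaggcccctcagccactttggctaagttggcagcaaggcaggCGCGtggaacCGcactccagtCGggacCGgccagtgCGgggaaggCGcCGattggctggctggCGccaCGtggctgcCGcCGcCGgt
Hoxd13: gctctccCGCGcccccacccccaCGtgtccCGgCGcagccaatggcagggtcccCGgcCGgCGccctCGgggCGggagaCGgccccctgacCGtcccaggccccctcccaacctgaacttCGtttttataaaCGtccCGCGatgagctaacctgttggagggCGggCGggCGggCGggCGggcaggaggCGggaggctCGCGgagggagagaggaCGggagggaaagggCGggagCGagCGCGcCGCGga

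The 3 windows differ in their CG content. The Hoxb1 window holds 7 CG dinucleotides, that of Hoxd1 24 and that of Hoxd13 31. RefSeq windows were matched for 22 of the 38 members, some with more than 1 start, which gave 24 windows. Their CG counts ran from 2 to 35 with a median of 12.5, against a median of 6 over all 32851 windows. The letters TGATNNAT, the core of a joint binding site of Hox and Pbx proteins, were searched on both strands. They occurred in 4 of the 24 Hox windows (16.7%) and in 7.7% of all windows. The match in the Hoxb1 window begins 162 bases before the start, at chr11:96365585-96365614 with its flanks, where the capitals mark it.
Hoxb1 match: tgattggggggTGATGGATgggcgctggga
No match says only that these letters are not in the window, and neither a CG count nor a match was set against the expression values.

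The knockdown was seen in the target gene. The 4 rows that list Tdg together with its pseudogene Tdg-ps2 had a mean log2 signal of 11.14 ± 0.05 in control and 8.11 ± 0.16 in knockdown cells (SD, n = 3 each), a difference of -3.03 (SE 0.09, limma adjusted p 8.79e-05). The 10 embryonic stem cell markers, Pou5f1, Nanog and Sox2 among them, had mean log2 signals of 10.45 to 13.34, and none differed past the threshold. Knockdown replicate 3 stood apart from the other 5 arrays, and the results on the Hox genes and the gene lists are given with and without it where the direction depends on it. Its median deviation from the control mean was 0.22 over the third of genes with the lowest levels and -0.09 over the third with the highest, while the medians of the 6 arrays lay between 7.41 and 7.48. The rank correlation between a gene's mean level and its signal in knockdown replicate 3 over the mean of knockdown replicates 1 and 2 was -0.54 across the 19938 genes and -0.29 across the 37 Hox genes, which share these arrays and are not independent.

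No Hox gene passed the test between knockdown and control. With limma over all named genes and an adjusted p under 0.05, 0 of 37 members were called, where 0.792% of all genes were, 0.241% higher and 0.552% lower. At an unadjusted p under 0.05, 3 members were higher and 0 lower, against 5.03% and 7.48% of all genes. With the replicate number of the titles as a block, 5 members were higher and 0 lower at an unadjusted p under 0.05, where 10.5% of all genes were higher and 11.4% lower. Again 0 passed after adjustment, where 3.08% of all genes did. The median difference of the members was 0.09 on the log2 scale, beside 0.02 for all genes. Above 0 lay 29 of the 37 (78.4%), against 55.4% of all genes and 69.1% of the 7900 genes within the range of Hox levels. Without knockdown replicate 3 the median was -0.02 and 16 lay above 0. For all genes the median was then -0.005, and 9615 of 19938 lay above 0. In that fit 0 members were called, where 1.45% of all genes were. At an unadjusted p under 0.05, Hoxb1, Hoxd1 and Hoxd13 were higher, where 7.08% of all genes were, and Hoxb13 and Hoxc4 lower, where 7.59% were.

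The members' values differed between arrays of the same group. The median deviation of the 37 members from their own control means was -0.11, -0.01 and 0.12 in control replicates 1, 2 and 3, and -0.003, -0.05 and 0.32 in knockdown replicates 1, 2 and 3. The medians of knockdown replicates 1 and 2 lay within the range of the controls, and that of knockdown replicate 3 lay above it. Knockdown replicate 3 was above the control mean for 34 members, against 18 for knockdown replicate 1 and 13 for knockdown replicate 2. It gave the highest of the 6 values for 31 of 37 members (83.8%), where it did so for 33.3% of all named genes. Control replicate 1 was the lowest control for 28 members and control replicate 3 the highest control for 24. When knockdown replicate 3 was left out, 14 members with a positive difference turned negative. That comparison keeps control replicate 3. Without both arrays numbered 3 the median difference of the members was 0.055, and 24 of the 37 lay above 0.

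**Figure D1:**
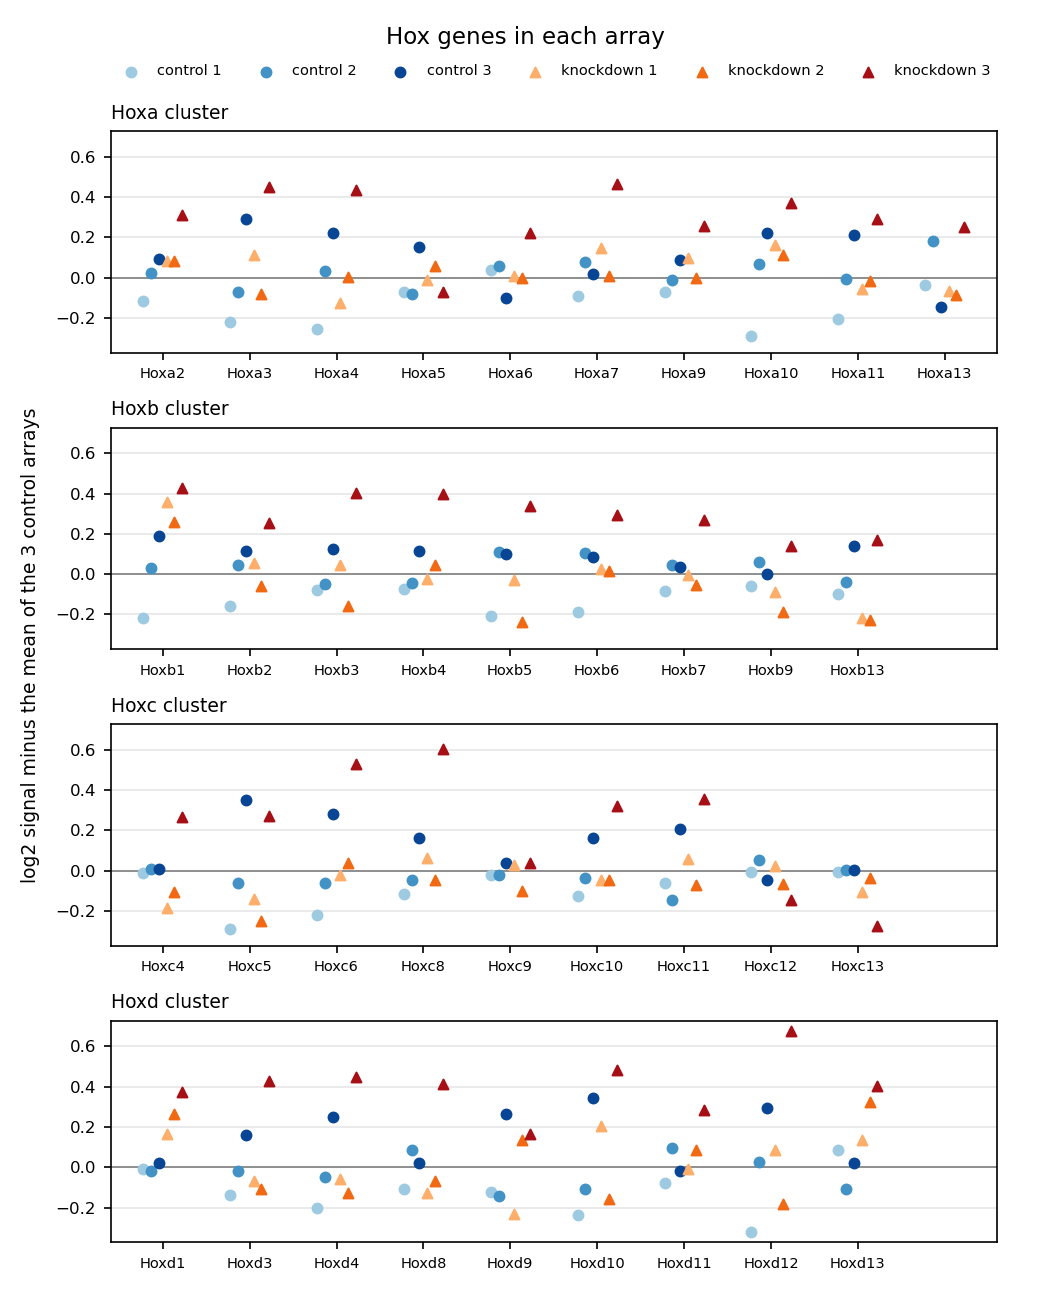
Log2 signal of each of the 37 measured Hox genes in each array, minus the mean of its 3 control arrays, ordered by number within each cluster (circles: control, triangles: knockdown). Knockdown replicate 3, the dark red triangle, is the highest of the 6 values for 31 genes.

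The paralogues of group 1, Hoxb1 and Hoxd1, were among the 3 members with the smallest p. Hoxb1 specifies the fourth segment of the embryonic hindbrain, and Hoxd1 is its counterpart at the 3′ end of the Hoxd cluster. Log2 signal of Hoxb1 was 7.35, 7.60 and 7.76 in the control arrays and 7.93, 7.83 and 8.0 in the knockdown arrays. All 3 knockdown values were above all 3 controls, and the controls were the more widely spread. The difference was 0.35 (SE 0.11, 95% interval 0.09 to 0.61, limma adjusted p 0.245, or 0.0874 with the replicate block). It was 0.31 without knockdown replicate 3. Leaving out each array in turn gave 0.24 to 0.445.

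Log2 signal of Hoxd1 was 6.05, 6.04 and 6.08 in the control arrays and 6.22, 6.32 and 6.43 in the knockdown arrays. The controls lay within 0.04 of each other and below every knockdown array. The difference was 0.27 (SE 0.07, 95% interval 0.10 to 0.44, limma adjusted p 0.168, or 0.0753 with the replicate block). It was 0.21 without knockdown replicate 3. The third of these members was Hoxd13, at the other end of the Hoxd cluster, which patterns digits and the genital bud. Its log2 signal was 6.50, 6.31 and 6.44 in the control arrays against 6.55, 6.74 and 6.82 in the knockdown arrays. The groups again did not overlap, although knockdown replicate 1 lay only just above control replicate 1. The difference was 0.29 (SE 0.09, 95% interval 0.07 to 0.50, limma adjusted p 0.247, or 0.135 with the replicate block). It was 0.23 without knockdown replicate 3.

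These 3 were the members whose groups did not overlap with knockdown higher, 3 of 37 where 7.98% of all genes met that rule. Hoxc13, which acts in hair and nail formation, was the 1 member with the groups apart and knockdown lower, where 11% of all genes were. Its log2 signal was 7.14, 7.15 and 7.15 in the control arrays and 7.04, 7.11 and 6.87 in the knockdown arrays. Here knockdown replicate 3 was the lowest array, against its direction in most other members. The difference was -0.14 (SE 0.08, limma adjusted p 0.543), and -0.07 without knockdown replicate 3. Without that array the groups stood apart for the same 3 higher members, where 15.6% of all genes met the rule, and for 4 lower ones, Hoxb9, Hoxb13, Hoxc4 and Hoxc13, where 15.3% did.

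**Figure D2:**
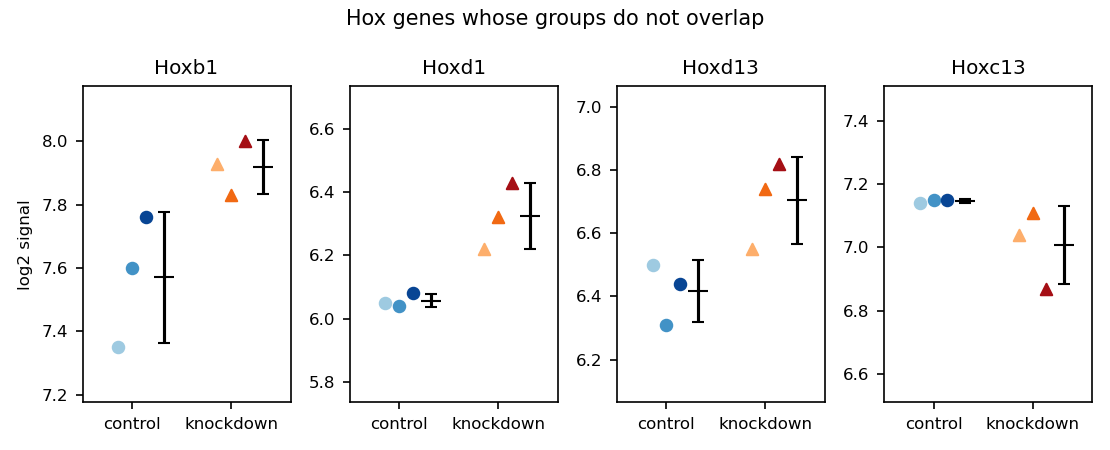
Log2 signal in each array for the 4 Hox genes whose control and knockdown values do not overlap (circles: control replicates 1 to 3 from left to right, triangles: knockdown replicates 1 to 3, bars: mean ± SD, n = 3 each). Every vertical axis spans 1 log2 unit; Hoxb1, Hoxd1 and Hoxd13 are higher and Hoxc13 is lower in knockdown, and none passed after adjustment.

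Among the settings tried, Hox genes were called only with array weights. With weights estimated gene by gene, a setting added after seeing the data, Hoxd1 was called (0.21, adjusted p 0.0455), where 8.19% of all genes were. With the default weights, whose estimation did not converge, 12 members were called, 6 higher and 6 lower, where 44.9% of all genes were.

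In the Hoxa cluster all 10 listed genes were measured and 9 lay above 0, with a median difference of 0.11 and a median of 0.02 without knockdown replicate 3. Hoxa2, which patterns the second branchial arch, read 5.43, 5.57 and 5.64 in the controls and 5.63, 5.63 and 5.86 in the knockdown arrays. Its values overlapped, and the difference was 0.16 (SE 0.09, adjusted p 0.565), or 0.08 without knockdown replicate 3. Hoxa7, a gene of the trunk, read 6.60, 6.77 and 6.71 against 6.84, 6.70 and 7.16. Its difference of 0.21 (SE 0.12, adjusted p 0.576) fell to 0.08 without that array. The other 8 ran from -0.01 for Hoxa5 to 0.21 for Hoxa10, which was 0.135 without that array. Hoxa5, a gene of the lung and the neck, was 1 of the 6 members for which knockdown replicate 3 was not the highest array.

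In the Hoxb cluster 9 members were measured, with a median difference of 0.08, or -0.03 without knockdown replicate 3, and that array was the highest for all 9. Besides Hoxb1, the smallest p was that of Hoxb4, a gene of blood stem cell expansion. It read 5.94, 5.97 and 6.13 in the controls and 5.99, 6.06 and 6.41 in the knockdown arrays. Its difference of 0.14 (SE 0.12, adjusted p 0.726) became 0.01 without knockdown replicate 3. At the 5′ end, Hoxb13 read 6.44, 6.50 and 6.68 in the controls and 6.32, 6.31 and 6.71 in the knockdown arrays. Knockdown replicates 1 and 2 were below all controls and knockdown replicate 3 above them. The difference was -0.09 (SE 0.13) with all arrays and -0.225 without knockdown replicate 3 (unadjusted p 0.0315, limma adjusted p 0.277). Hoxb9 showed the same arrangement of arrays, with -0.05 and -0.14. The row shared by Hoxb8 and Hoxb7 read 5.62, 5.69 and 5.85 in control and 5.65, 5.68 and 5.88 in knockdown arrays, a difference of 0.02, and Hoxb7 in its own row differed by 0.07, or -0.03 without knockdown replicate 3.

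In the Hoxc cluster 9 members were measured and 4 lay above 0, with a median difference of -0.01, or -0.035 without knockdown replicate 3. Hoxc8, a thoracic patterning gene, had the smallest p after Hoxc13. It read 5.72, 5.79 and 6.0 in the controls and 5.90, 5.79 and 6.44 in the knockdown arrays. Its difference of 0.21 (SE 0.17, adjusted p 0.715) was 0.008 without knockdown replicate 3 and 0.09 without both arrays numbered 3. Hoxc4 read 5.44, 5.46 and 5.46 in the controls and 5.27, 5.35 and 5.72 in the knockdown arrays. Its controls were nearly equal, with 2 knockdown arrays below and 1 above. The difference was -0.01 (SE 0.12) and became -0.14 without knockdown replicate 3 (unadjusted p 0.049, limma adjusted p 0.338). Hoxc5 read 5.36, 5.59 and 6.0 against 5.51, 5.40 and 5.92, so its spread within each group exceeded the difference of -0.04 (SE 0.19), or -0.195 without that array.

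In the Hoxd cluster 9 members were measured, with a median difference of 0.12. All 9 lay above 0, where 69.1% of the genes within the range of Hox levels did. Without knockdown replicate 3 the median was -0.05 and 4 of the 9 lay above 0. Without both arrays numbered 3 it was 0.085. Hoxd1 and Hoxd13, at its ends, are given above. The 7 members between them, Hoxd3 to Hoxd12, ran from 0.02 for Hoxd9 to 0.19 for Hoxd12. Without knockdown replicate 3 they ran from -0.10 for Hoxd8 to 0.04 for Hoxd11. Hoxd12, a gene of the distal limb, had the largest standard error of the members, with 5.47, 5.82 and 6.09 in the controls and 5.88, 5.61 and 6.47 in the knockdown arrays. Its values overlapped across the whole range but for knockdown replicate 3, and the difference was 0.19 (SE 0.24), or -0.05 without that array.

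By position, the 7 measured members of groups 1 to 3 had a median difference of 0.16, the 14 of groups 4 to 8 one of 0.08 and the 16 of groups 9 to 13 one of 0.075. Without knockdown replicate 3 these medians were 0.015, -0.01 and -0.04, and without both arrays numbered 3 they were 0.13, 0.04 and 0.05. The rank correlation between group number and difference was -0.24 over the 37 members, and -0.13 without knockdown replicate 3. It is a description across genes that share the same arrays. Among single groups, the 2 members of group 1 had a median of 0.31, or 0.26 without knockdown replicate 3. The other groups lay between -0.03 for the 4 members of group 13 and 0.18 for the 3 of group 10. Without knockdown replicate 3 they lay between -0.135 for group 5 and 0.04 for group 2, with group 10 at 0.02. The medians of groups 3, 4, 8, 9, 11 and 12 then turned from above 0 to below. The members of group 13 lay furthest apart, with Hoxd13 at 0.29, Hoxa13 at 0.03, Hoxb13 at -0.09 and Hoxc13 at -0.14. Without knockdown replicate 3 these were 0.23, -0.08, -0.225 and -0.07.

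The intervals give the range of differences compatible with each member's values. Standard errors of the members ran from 0.07 to 0.24, with a median of 0.12 against 0.09 for all genes. For each of the 37 members the 95% interval lay between -1 and 1, so that it excluded a 2-fold change of the measured signal either way. For 27 of the 37 it lay between -0.5 and 0.5. The outermost bounds were -0.49 for Hoxc5 and 0.76 for Hoxd12, and 3 intervals, not adjusted for the number of genes, lay wholly above 0. With the replicate block the standard errors were smaller, from 0.05 to 0.13 with a median of 0.08 against 0.06 for all genes. In that fit 35 of the 37 intervals lay between -0.5 and 0.5, the outermost bounds were -0.30 for Hoxc13 and 0.56 for Hoxb1, and 5 lay wholly above 0. Mean log2 signals of the members ran from 4.91 for Hoxa5 to 7.87 for Hoxb3, and 30 of the 37 fell among the third of named genes with the lowest levels. Detection above background was not analysed here, and a fold change of a dim row can be smaller in signal than in RNA. Levels of different genes come from different probes and are not ranked against each other.

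**Figure D3:**
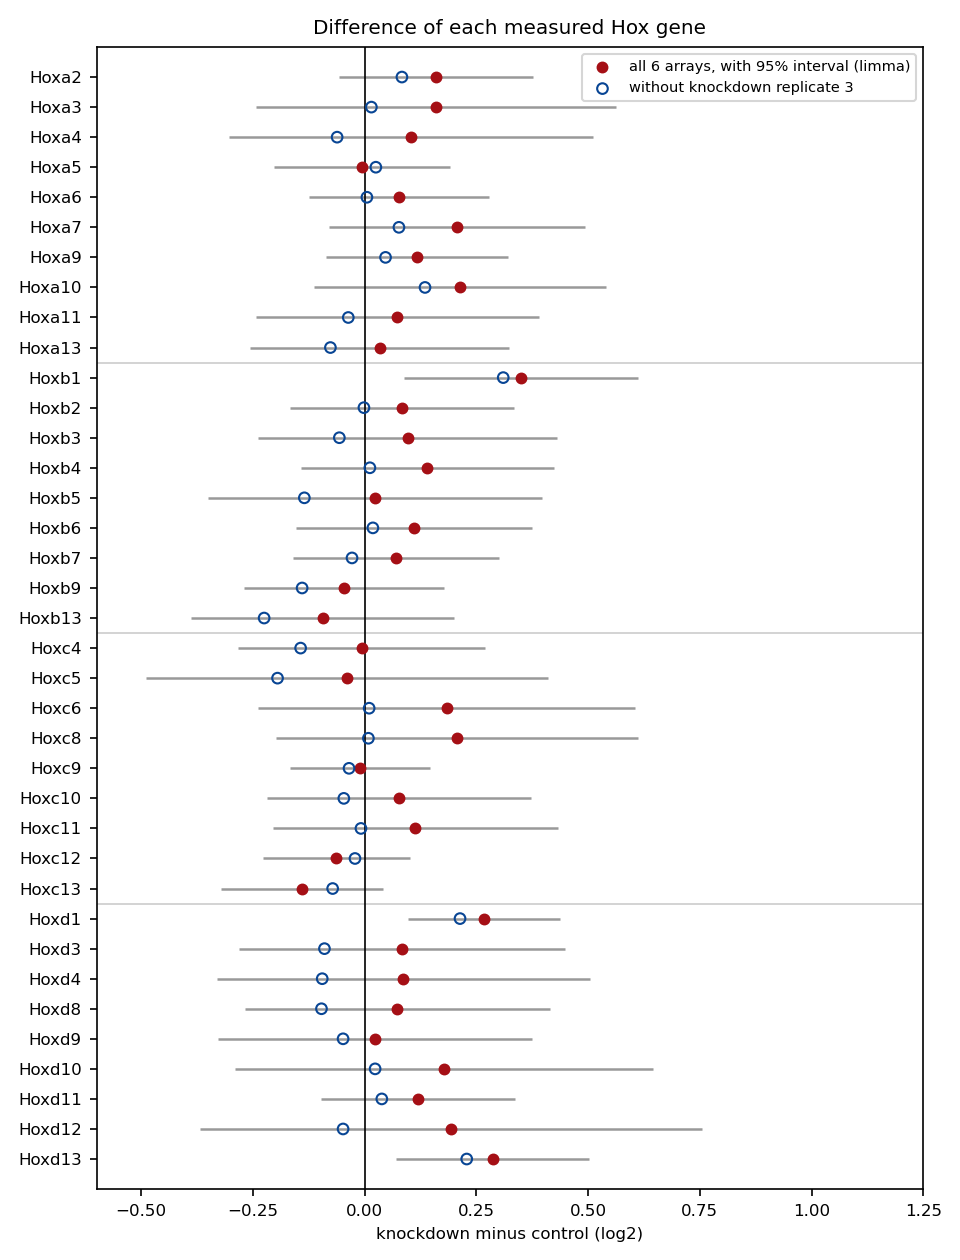
Difference in log2 signal, knockdown minus control, of each measured Hox gene by cluster, with all 6 arrays (filled, bars: 95% interval from limma, not adjusted) and without knockdown replicate 3 (open). Most open circles lie to the left of the filled ones, and those of Hoxb1, Hoxd1 and Hoxd13 stay above 0.2.

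Other homeobox genes, outside the clusters, had a median difference close to that of the Hox genes. The list of 86 measured genes, among them the Dlx, Lhx, Nkx, Irx and Pitx families, had a median difference of 0.08 and 77 above 0. It had a median of -0.01 without knockdown replicate 3, and that array was the highest of the 6 for 83.7% of them. Their median deviation in knockdown replicate 3 was 0.32, equal to that of the Hox genes to 2 decimals. With limma 0 passed the test, where 0.792% of all genes did. At an unadjusted p under 0.05, 2 were higher and 0 lower, against 5.03% and 7.48% of all genes. The smallest p were those of Msx2 (0.23, adjusted p 0.290), a BMP target, and Lhx9 (0.27, adjusted p 0.365), a gene of the gonad and limb. Olfactory receptors, 1027 genes mostly silent outside the nose, had 78.1% above 0 and a median difference of 0.08, or -0.002 without knockdown replicate 3. That array was the highest for 59.5% of them. Among the 7900 genes within the range of Hox levels it was the highest for 60.5%. How far this array sets the Hox differences was not tested beyond these values and those without it.

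**Figure D4:**
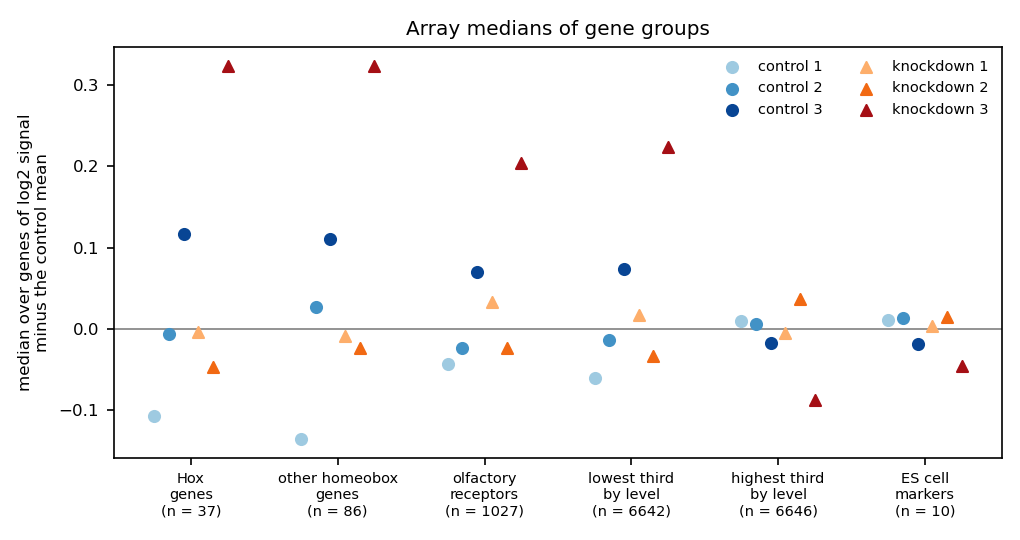
Median over the genes of a group of log2 signal minus the control mean, for each array (circles: control, triangles: knockdown). Hox genes and other homeobox genes both reach 0.32 in knockdown replicate 3, olfactory receptors 0.20 and the third of genes with the lowest levels 0.22, while the third with the highest levels is at -0.09.

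Markers of other cells that express Hox genes were taken from embryonic neural tube and somites and from fibroblasts. With limma 0 genes of either list passed, and 0 had an unadjusted p under 0.05. Of all genes, 0.792% passed and 12.5% had such a p. Of 10 genes of the neural tube and somites, 9 lay above 0, with a median of 0.08, or -0.005 without knockdown replicate 3. The smallest p were those of Tcf15 (0.12, adjusted p 0.495), a gene of the somites and of primed epiblast, and Olig2 (0.19, adjusted p 0.512), a motor neuron progenitor factor. Of 10 fibroblast markers 6 lay above 0, with a median of 0.02, or -0.09 without that array. Lum (0.12, or 0.01 without it, adjusted p 0.743) and Dcn (-0.10, or -0.22 without it, adjusted p 0.80), small proteoglycans of the matrix, had the smallest p. The median deviations of these lists in knockdown replicate 3 were 0.24 and 0.235, and for the other 5 arrays they lay between -0.14 and 0.105.

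Genes that act on Hox clusters or beside Hox proteins were taken as lists. Of 18 measured genes, inputs to Hox expression such as the retinoid, Wnt and FGF pathways and the related ParaHox genes, 16 lay above 0, with a median of 0.10, and 11 lay above 0 without knockdown replicate 3, with a median of 0.08. With limma 1 rose and 0 fell, where 0.792% of all genes were called. At an unadjusted p under 0.05, 6 were higher and 1 lower, against 5.03% and 7.48% of all genes. The gene that rose was Rarg, a retinoic acid receptor (0.37, SE 0.06, limma adjusted p 0.0485). Its log2 mean was 10.59 in control and 10.95 in knockdown cells, and the difference was 0.36 without knockdown replicate 3. The call rests on the full set of arrays: when any array other than knockdown replicate 3 was left out the difference was 0.35 to 0.39 and the adjusted p 0.125 to 0.304. It was also lost with median centring (adjusted p 0.101), with all rows tested (0.123) and without both arrays numbered 3 (0.0809). Of the other retinoid genes, the receptors Rara and Rarb showed 0.06 and 0.25 (adjusted p 0.791 and 0.241), the synthetic enzyme gene Aldh1a2 0.20 (0.352) and the degrading enzyme gene Cyp26a1 -0.15 (0.551). Cdx4, a caudal factor that binds Hox clusters, showed -0.25 (adjusted p 0.213), and its relatives Cdx1 and Cdx2 showed 0.04 and 0.02, or -0.08 and -0.08 without knockdown replicate 3. With the replicate block 3 of the 18 were called, where 3.08% of all genes were, adding Gbx2 (0.34, blocked adjusted p 0.0369), a factor of the anterior hindbrain, and Egr2 (0.51, blocked adjusted p 0.0336), which activates Hox genes in hindbrain segments. The genes of this list other than Rarg were named after their values were seen.

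Cofactors and chromatin regulators of Hox genes held no called gene, and 0 of either list had an unadjusted p under 0.05 in limma. Of all genes, 0.792% were called and 12.5% had such a p. The 8 measured TALE cofactors, which bind DNA with Hox proteins, had a median of -0.06. The smallest p were those of Pbx2 (-0.13, adjusted p 0.588) and Meis2 (0.11, adjusted p 0.609). The 24 Polycomb, Trithorax and insulator genes had a median of 0.01 and ran from -0.12 to 0.10. Kdm6b, a demethylase of the Polycomb mark, showed -0.12 (adjusted p 0.560) and the Polycomb gene Bmi1 -0.11 (adjusted p 0.606). Kdm2b, which recruits Polycomb to CpG islands and is named by the extraction protocol in place of Tdg, showed 0.10 (adjusted p 0.694).

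Genes beside and between the Hox genes were also measured. Of 27 measured neighbours, cluster RNAs and microRNA precursors, 18 lay above 0, with a median of 0.03. In limma 0 passed, where 0.792% of all genes did. At an unadjusted p under 0.05, 0 were higher and 2 lower, against 5.03% and 7.48% of all genes. Without knockdown replicate 3 the median was -0.04, with 11 above 0 and 16 below. The smallest p were those of Ttll6, a tubulin polyglutamylase gene next to Hoxb13 among the named coding genes (-0.43, SE 0.09, adjusted p 0.0951), and Calcoco1, the coding gene next to Hoxc13 (-0.20, SE 0.07, adjusted p 0.252). With the replicate block 1 of the 27, Ttll6, was called (blocked adjusted p 0.0392), where 3.08% of all genes were. Beside Hoxb1, its coding neighbours Hoxb2 and Skap1 showed 0.08 and 0.05, or -0.002 and 0.05 without knockdown replicate 3. Beside Hoxd1, the long noncoding RNA gene Haglr showed 0.10, or -0.07 without knockdown replicate 3, and the mitochondrial import gene Mtx2 -0.05, or -0.04. Beside Hoxd13, Hoxd12 showed 0.19 and Evx2, a homeobox gene at the end of the cluster, 0.09, or -0.05 and -0.07 without that array. The microRNA precursors within the clusters, Mir10a, Mir10b, Mir196a-1, Mir196a-2, Mir196b and Mir615, ran from -0.01 to 0.18, and from -0.11 to 0.02 without knockdown replicate 3.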

How the data were processed

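The deposited table holds log2 signals per probe set for 6 arrays, made by the authors. Per the submitters' processing notes the software was Affymetrix Expression Console. Not given in the sources used here are its version, the summarisation, the normalization and the build. That signals are on a log2 scale follows from their range of 2.26 to 14.03. Of 35557 rows, 21789 list 1 gene, 1621 several and 12147 none in the platform annotation. Symbols were updated by gene identifier for 21698 rows through RefSeq (GRCm38.p6), used also for names of neighbours and for the sequences. Where a gene had more than 1 row, that of highest mean signal was kept. Knockdown was compared with control by limma 3.58.1 in R 4.3.3 (lmFit, eBayes, two-sided), with Benjamini-Hochberg adjustment over all 19938 named genes and a threshold of 0.05. The fit was tested on simulated data with independent noise in each gene and array. Those data held no shift of a whole array like that of knockdown replicate 3, so the test does not cover such a shift. Values per array are given for the 2 members of each cluster with the smallest p, for the 3 highest and 3 lowest differences without knockdown replicate 3, and for others named in passing. From other lists, called members are named, or the 2 with the smallest p. The members and lists were chosen with earlier results of these data known. Deviations of same-numbered arrays correlated at 0.61, 0.23 and 0.70 over all genes, each over the criterion of 0.1. Over the Hox genes the values were 0.15, -0.04 and 0.46. Deviations were taken from each group's own mean, so positive values at equal numbers come with negative ones on balance at different numbers. The values at different numbers are not given here, and those at equal numbers do not decide whether equal numbers share a culture or day. No label says that they do, and the model has no block. Alternatives, each changed alone, were the block, quantile normalization, median centring, a level filter, another prior, array weights, other choices of row, and arrays left out. No set test was made.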

Additional observations from a re-analysis of the deposited data

How the results depend on the processing

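With the replicate block, quantile normalization, median centring, a trended and robust prior, the mean of a gene's rows, all rows tested, each array left out or both arrays numbered 3 left out, limma called 0 Hox genes. The block raised the count of all genes called from 158 to 614 and changed no call of a Hox gene. The count of all genes called was 444 after leaving out the third, by level, of rows that were dimmest (which left 7 Hox genes, 0 of them called), 446 with the trended and robust prior and 17 with all rows tested. Leaving out each array in turn gave 0 to 290. With array weights it was 8946, and 12 Hox genes were called. That estimation did not converge and gave control replicate 2 and knockdown replicate 1 weights of 7.08 and 8.56, against 0.13 for knockdown replicate 3. With weights estimated gene by gene, added after seeing the data, it was 1633, with 1 Hox gene. The median Hox difference lay between -0.02, without knockdown replicate 3, and 0.16, without control replicate 3, over the arrays left out. Without control replicate 1 it was 0.02, and without knockdown replicate 1 or 2 it was 0.15 or 0.155. It was -0.01 with the default weights and 0.055 without both arrays numbered 3. The differences of Hoxc4 and Hoxc5, both below 0 with all arrays, turned above 0 with some arrays left out. Over the arrays left out that of Hoxc4 ran from -0.14, without knockdown replicate 3, to 0.082, without knockdown replicate 1, and that of Hoxc5 from -0.195, without knockdown replicate 3, to 0.135, without control replicate 3. Signal over background was not analysed here.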
